A study of Mus musculus with 20 samples.

Results

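Chemokines are small secreted proteins that direct the movement of white blood cells, and chemokine receptors are the seven-pass membrane proteins through which cells sense them. The genes described here are the protein-coding genes of the mouse NCBIM37 (mm9) annotation whose symbol is Ccl, Cxcl, Ccr, Cxcr, Cx3cl, Cx3cr, Xcl or Xcr followed by a number. They number 58 of 36611 genes, of which 22232 are protein-coding. Ccl19-ps1, Ccl19-ps3 and Cxcl11 carry such a symbol but are not annotated as protein-coding and were left out. The 38 ligands comprise 24 of the CC class, 12 of the CXC class, Cx3cl1 and Xcl1, and the 20 receptors comprise 11 of the CC class, 7 of the CXC class, Cx3cr1 and Xcr1. Their levels were measured by RNA-seq in iWAT (inguinal white adipose tissue, a subcutaneous depot) from 20 female C57BL/6 mice in 4 groups of 5.

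The groups crossed genotype and diet. Ad-Tmem120a-/- mice carried Tmem120a alleles in which exons 2 and 3 lie between loxP sites (Tmem120a fl/fl) and a Cre recombinase transgene under the adiponectin promoter (Adipoq-Cre), which acts in mature adipocytes, so stromal, vascular and immune cells of the tissue were not targeted. The control mice are labelled wild type, and the study's methods describe them as littermates that carried both floxed alleles and no Cre. Both genotypes received either LFD (a low fat diet with 10.5% of energy as fat) or HFD (a high fat diet with 58%) over 15 weeks and were sampled at 6 months of age. The mice are numbered 1 to 5 (control LFD), 6 to 10 (knockout LFD), 11 to 15 (control HFD) and 17 to 21 (knockout HFD), and values below are given in that order.

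Chemokines are grouped by the spacing of the first cysteines of the mature protein. In CC ligands a pair of cysteines is adjacent, in CXC ligands 1 residue separates them, in CX3C ligands 3 residues do, and XC ligands keep a single cysteine of the pair. The receptors couple to inhibitory G proteins, and a set of atypical receptors binds ligands without that coupling and clears them. In adipose tissue, chemokines are best known for the recruitment of monocytes that become macrophages in obesity. In lymphoid tissue, they place T and B lymphocytes into separate zones, and the inguinal fat pad encloses a lymph node. Stretches of the annotated coding sequences of Ccl2, Cxcl12, Cx3cl1 and Xcl1 are shown 5′ to 3′ because their spacing defines the classes into which the members fall, with the defining cysteine codons in capitals.
Ccl2 (CC): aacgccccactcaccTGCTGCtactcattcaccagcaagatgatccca
Cxcl12 (CXC): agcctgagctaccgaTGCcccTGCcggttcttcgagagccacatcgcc
Cx3cl1 (CX3C): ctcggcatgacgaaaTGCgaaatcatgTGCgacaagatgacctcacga
Xcl1 (XC): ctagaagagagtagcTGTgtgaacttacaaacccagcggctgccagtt

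Of the 58 members, 57 were in the deposited table and Ccl27b was not analysed here. Levels are in TPM, which are scaled for transcript length and library size and so can be compared between genes. Averaged over the 20 libraries, 45 members reached 0.5 TPM and 19 reached 10 TPM. The other 12 were Ccl1, Cxcl2, Cxcl3, Cxcl5, Ccl26, Ccl21a, Ccl21b, Ccr8, Ccr10, Ccr1l1, Cxcr1 and the lesser of 2 genes annotated as Ccl25. Ccl26, Ccl21a and Ccl21b were at 0 counts in every library. A count of 0 allows up to 3 counts, and Ccl21a and Ccl21b share nearly all of their sequence with copies, as described further on.

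The summed level of all members lay between 541 and 941 TPM per library, and 15 members made up 84.2% of it. Ccl11 (eotaxin, the eosinophil attractant sensed by Ccr3) was the most abundant member at a mean of 138 TPM, against 1.16 TPM for Ccr3. Its 20 values ran from 85.3 to 201 TPM. Ccl9 (72.4 TPM) and Ccl6 (69.7 TPM), rodent CC ligands sensed by Ccr1 (5.57 TPM), followed it, and their ranges overlapped almost throughout. Cxcl12, the ligand that retains haematopoietic and stromal cells in tissues, had a mean of 53.3 TPM and the narrowest spread within groups of all 45 members, with a coefficient of variation of 12.8%. Its signalling receptor Cxcr4 was at 11.9 TPM and Cxcr7, the atypical receptor that clears Cxcl12, at 26.4 TPM. Ccr2, the receptor that brings monocytes out of blood, was the most abundant receptor at 49.1 TPM, and its ligands Ccl2, Ccl12 and Ccl7 had means of 21.8, 13.7 and 10.8 TPM. Ccl8, a neighbour of these ligands on chromosome 11, had a mean of 24.9 TPM. Cxcl13, which guides B cells through Cxcr5 (3.89 TPM), had a mean of 40.6 TPM with values from 2.27 to 129 TPM, a wider span than that of any other member in the top 10. The remaining members of the top 15 were Cxcl14 (27.9 TPM), Cxcl9 (26.5 TPM), Cxcl15 (20.7 TPM), Ccl24 (15.0 TPM) and Ccl5 (12.5 TPM). Within groups, the coefficient of variation had a median of 47.8% over the 45 members and exceeded 50% in 19 of them, so small differences between groups were not resolvable for many members.

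**Figure D1:**
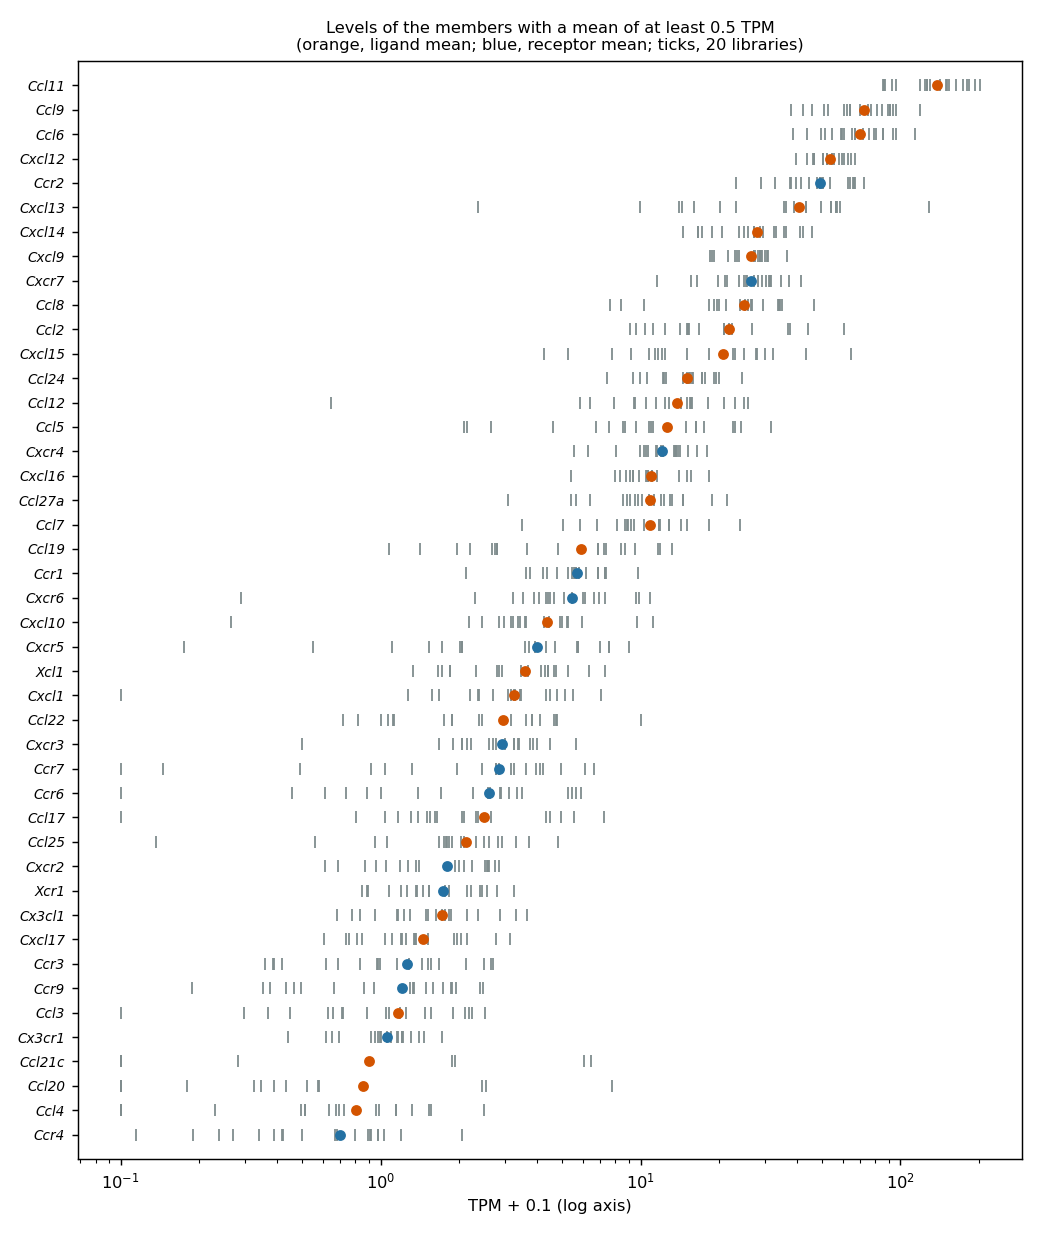
Each row is 1 of 44 members with a mean of at least 0.5 TPM, ordered by that mean. The x axis is TPM + 0.1 on a log scale, ticks are the 20 libraries, and the dot is the mean (orange for ligands, blue for receptors). Ccl11 stands at the top with a mean of 138 TPM, and Cxcl13 spans 2.27 to 129 TPM.

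Several members sit side by side in the genome. Ccl2, Ccl7, Ccl11, Ccl12, Ccl8 and Ccl1 lie within chr11:81849073-82119192, and Ccl5, Ccl9, Ccl6, Ccl3 and Ccl4 within chr11:83339280-83478185 (mm9). Neighbours did not share a level. In the first cluster the means ran from 138 TPM for Ccl11 to 0.377 TPM for Ccl1, and in the second from 72.4 TPM for Ccl9 to 0.702 TPM for Ccl4.

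The 20 libraries held 54605101 to 92387737 estimated counts, of which members took 42452 to 82975. Tmem120a itself had a mean of 85.4 ± 28.4 TPM (SD, n = 5) in control mice and 41.5 ± 21.9 TPM in knockout mice on LFD, and 119 ± 44.5 and 51.6 ± 26.7 TPM on HFD (edgeR log2 fold changes -1.61 and -1.67, each past an unadjusted p of 0.05 but not called after adjustment on either diet alone). Over both diets it was called lower in knockout mice (log2 fold change -1.64, adjusted p = 0.00452). Adipocyte markers were present in every library, with summed levels from 13150 to 28865 TPM, while skeletal muscle genes varied between 5.69 and 2722 TPM and mammary and skin epithelium genes between 67.9 and 249 TPM. In bulk tissue, fewer cells of a type and less RNA per cell cannot be told apart, and this holds for every value below. The library of control LFD mouse 1 stands apart: its 12 lymphocyte markers summed to 11.9 TPM, against 32.4 to 235 TPM in the other 19 libraries, and it was the lowest of all 20 libraries for 12 of the 42 members that had a single lowest library. Knockout LFD mouse 9 was the lowest for 7 and listed Ccl3, Ccl17, Cxcl1 and Ccr7 at 0.

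The diet comparison asks how chemokine genes of this depot respond to a high fat diet. Over both genotypes 10 of the 45 members tested were called (22.2%), against 25.2% of all 15574 genes, a share close to the background. Of all genes 12.5% were called higher and 12.7% lower. With limma on log2(TPM + 1), 75.0% of the genes called were higher, against 49.7% with edgeR. Ccl2, Cxcr7, Ccr2, Ccl3, Ccl11 and Ccl9 rose on HFD and Cx3cl1, Cxcl12, Ccl20 and Ccl27a fell. The median log2 fold change of the members tested was -0.17, against -0.03 for all genes. The fit was edgeR's quasi-likelihood test with genotype as a covariate, and a call is an adjusted p under 0.1 (Benjamini-Hochberg over all genes tested). Here and below, called or not called refers to this test on all libraries of the comparison unless another tool or setting is named. Ccl2, Cxcr7, Ccr2, Ccl3 and Cx3cl1 kept their call in all 29 alternatives.

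Ccl2 (MCP-1, chr11:81849073-81850955, forward strand), the main monocyte attractant of adipose tissue, had the lowest adjusted p of the members. On LFD it was at 15.1, 15.3, 15.0, 9.48 and 11.1 TPM in control mice and 15.1, 9.03, 20.9, 12.3 and 14.04 TPM in knockout mice. The HFD values were 26.8, 37.3, 22.4, 20.9 and 60.7 TPM in control mice and 16.8, 37.0, 21.8, 10.3 and 44.1 TPM in knockout mice. Every control mouse on HFD lay above every control mouse on LFD, while in knockout mice the diets overlapped, with mice 17 and 20 among the LFD values. Ccl2 rose over both genotypes (log2 fold change of 0.95, SE 0.26, adjusted p = 0.012) and in control mice (log2 fold change of 1.18, SE 0.31, adjusted p = 0.0555), and had in knockout mice a log2 fold change of 0.70, SE 0.37, adjusted p = 0.334. The difference between the diet effects was not significant (log2 difference of -0.50, SE 0.51, adjusted p = 0.9999), so a larger response in control mice is not shown.

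Ccr2 (chr9:124016689-124028296, forward strand), the receptor for Ccl2, rose with it. It was at 41.4, 50.2, 32.8, 23.2 and 49.0 TPM in control mice and 37.5, 39.5, 37.9, 53.4 and 29.0 TPM in knockout mice on LFD. Under HFD it reached 49.7, 48.8, 63.6, 72.4 and 44.6 TPM in control mice and 47.7, 65.5, 66.8, 62.7 and 66.0 TPM in knockout mice. In both genotypes the diets overlapped, in knockout mice only through mouse 9 on LFD and mouse 17 on HFD. Its change was called over both genotypes (log2 fold change of 0.41, SE 0.13, adjusted p = 0.0338) and, at the edge of the threshold, in knockout mice (log2 fold change of 0.52, SE 0.17, adjusted p = 0.0997), where 12 of 19 alternatives lost the call. The other Ccr2 ligands Ccl7 and Ccl12, and their neighbour Ccl8, were not called in any diet comparison.

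Ccl3 (MIP-1 alpha, a macrophage product sensed by Ccr1, chr11:83461346-83462857, reverse strand) was low, with 0 to 89 counts per library. It was at 0.614, 0.556, 0.268, 0.977 and 0.787 TPM in control mice and 0.197, 1.09, 0.528, 0 and 0.349 TPM in knockout mice on LFD, and with HFD at 1.46, 2.15, 1.37, 2.01 and 1.80 TPM in control mice and 1.15, 2.10, 2.43, 0.609 and 0.952 TPM in knockout mice. The diets did not overlap in control mice and overlapped in knockout mice. Ccl3 rose over both genotypes (log2 fold change of 1.54, SE 0.50, adjusted p = 0.0372). In control mice alone it missed the threshold (log2 fold change of 1.30, SE 0.44, adjusted p = 0.117), although DESeq2 called it there (adjusted p = 0.0435). Its neighbour Ccl4 was not called. Ccl9 (chr11:83386421-83392138, reverse strand) rose over both genotypes by a small amount (log2 fold change of 0.32, SE 0.13, adjusted p = 0.0907), from 69.1 ± 17.8 TPM (SD, n = 5) to 91.4 ± 4.13 TPM in control mice and from 51.3 ± 11.8 to 77.6 ± 24.3 TPM in knockout mice, and 16 of 29 alternatives lost this call.

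Cxcr7 (chr1:92100555-92113326, forward strand), the scavenger of Cxcl12, rose. The gene sum of Cxcl12, which includes a transcript that retains an intron, fell. In knockout mice Cxcr7 was at 19.7, 21.1, 23.9, 15.6 and 11.5 TPM on LFD and 30.4, 28.2, 29.2, 27.1 and 41.4 TPM on HFD, and the diets did not overlap. In control mice it was at 25.7, 25.4, 21.3, 16.3 and 31.5 TPM on LFD and 34.6, 31.1, 31.8, 37.1 and 24.9 TPM on HFD, and the diets overlapped. It rose over both genotypes (log2 fold change of 0.42, SE 0.12, adjusted p = 0.0192) and in knockout mice (log2 fold change of 0.64, SE 0.16, adjusted p = 0.0359), the latter in all 19 alternatives. In control mice the change was not called (log2 fold change of 0.19, SE 0.16, adjusted p = 0.564), and the difference between the diet effects was not significant (log2 difference of 0.43, SE 0.23, adjusted p = 0.9999). Cxcl12 (chr6:117118553-117131385, forward strand) was at 54.5, 60.4, 50.1, 43.6 and 52.2 TPM in control mice and 52.0, 67.0, 64.2, 51.9 and 59.6 TPM in knockout mice on LFD. On HFD its level was 39.5, 55.5, 58.1, 46.4 and 50.1 TPM in control mice and 45.8, 46.6, 54.6, 52.1 and 62.8 TPM in knockout mice. The groups overlapped widely, and the fall was small (log2 fold change of -0.26, SE 0.09, adjusted p = 0.0356); with limma on log2(TPM + 1) it was -0.12 and not called (adjusted p = 0.358). The receptor Cxcr4 was not called in any comparison.

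Cxcl12 is made as several transcripts, whose 3′ coding ends differ. The 3 annotated coding transcripts share 267 coding bases and then diverge, and the ends are shown because only these bases tell the forms apart within the coding sequence, with bases after the shared part in capitals.
Cxcl12-001: gagaaagctttaaacaagTAA
Cxcl12-002: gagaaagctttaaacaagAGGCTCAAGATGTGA
Cxcl12-003: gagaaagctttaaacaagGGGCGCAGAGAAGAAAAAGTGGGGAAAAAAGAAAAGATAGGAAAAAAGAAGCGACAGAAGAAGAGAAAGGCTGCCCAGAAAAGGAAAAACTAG

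The first form encodes 89 codons, the second 93 and the third 119, the last with a long basic tail. The authors' division of reads gave the first form the highest mean of the 3 in every group, with means of 22.4 ± 4.21 TPM (SD, n = 5) in control mice and 24.2 ± 11.7 TPM in knockout mice on LFD, and 20.1 ± 4.65 and 23.1 ± 2.29 TPM on HFD. The second form was at 13.6 to 18.1 TPM and the third at 6.28 to 7.68 TPM in the means of the 4 groups. In control mice the second form was at 13.6 ± 4.9 TPM on LFD and 17.6 ± 7.1 TPM on HFD. In knockout mice it was at 18.1 ± 5.1 and 17.5 ± 2.9 TPM. The call of Cxcl12 as lower on HFD rests on the gene sum, not on the coding forms alone. An annotated transcript that retains an intron was at 8.50 ± 3.39 and 9.68 ± 5.52 TPM on LFD and at 5.13 ± 1.75 and 5.58 ± 1.59 TPM on HFD. No transcript separated the groups, and their levels are estimates from shared reads.

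Cx3cl1 (fractalkine, a ligand tethered to the membrane of endothelial and other cells, chr8:97295909-97306323, forward strand) fell on HFD. It was at 1.42, 1.74, 1.19, 2.78 and 2.05 TPM in control mice and 1.62, 3.56, 3.21, 1.54 and 1.07 TPM in knockout mice on LFD. Values on HFD were 2.28, 0.578, 1.13, 0.731 and 1.05 TPM in control mice and 1.66, 0.673, 0.853, 1.40 and 1.77 TPM in knockout mice. The diets overlapped in both genotypes, with control mouse 11 high on HFD. The fall was called over both genotypes (log2 fold change of -0.80, SE 0.23, adjusted p = 0.0173) and not in control (log2 fold change of -0.75, SE 0.32, adjusted p = 0.207) or knockout mice alone (log2 fold change of -0.84, SE 0.31, adjusted p = 0.146). Its receptor Cx3cr1 was not called in any comparison. Of 8 blood endothelial markers, 4 rose over both genotypes (Cdh5, Pecam1, Tek and Tie1), where 12.5% of all genes were called higher. The part of these markers in the fall of Cx3cl1 was not tested.

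**Figure D2:**
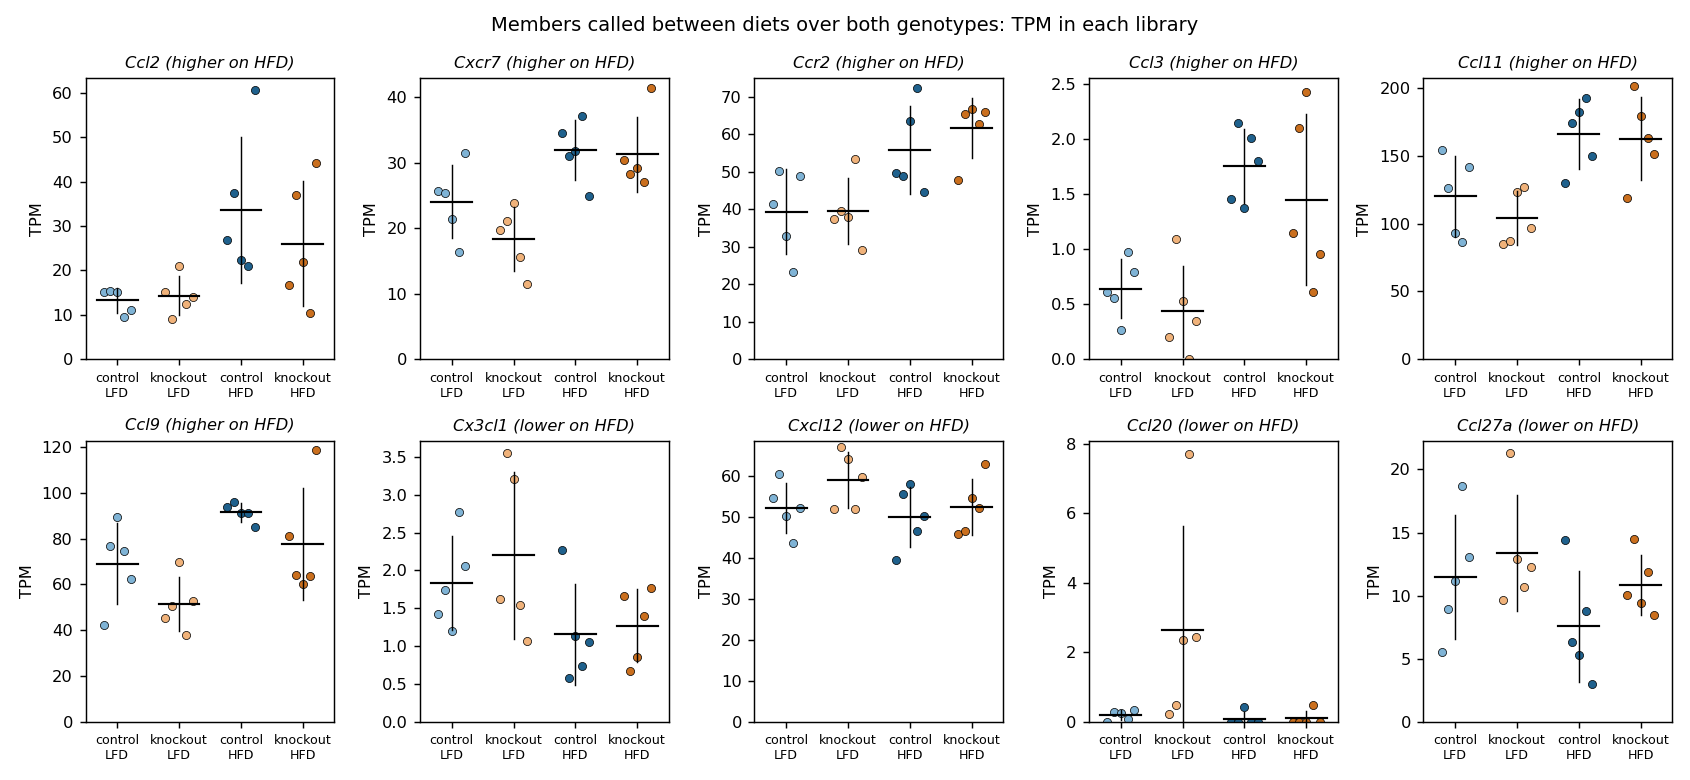
TPM of the 10 members called between diets over both genotypes, in each library. Each point is 1 mouse, the horizontal line the mean and the vertical line the SD of 5 mice, drawn no lower than 0; the y axis of each panel starts at 0. The diets part without overlap for Ccl2 and Ccl3 in control mice and for Cxcr7 in knockout mice, and Ccl20 is above 2 TPM in 3 knockout LFD mice.

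Among ligands of eosinophils and type 2 lymphocytes, Ccl11 (chr11:81871325-81876457, forward strand) rose over both genotypes (log2 fold change of 0.37, SE 0.14, adjusted p = 0.0632). It was at 154, 126, 92.8, 86.1 and 142 TPM in control mice and 85.3, 87.3, 124, 127 and 96.4 TPM in knockout mice on LFD. On HFD the values were 129.8, 174, 183, 193 and 149.8 TPM in control mice and 119, 201, 179.7, 163 and 151 TPM in knockout mice. The groups overlapped, and 7 of 29 alternatives lost the call. Its receptor Ccr3 and the related ligand Ccl24 were not called by edgeR on all libraries, although Ccr3 was called higher on HFD in knockout mice without knockout LFD mouse 9 (adjusted p = 0.0939), and the 4 eosinophil markers summed to at most 5.12 TPM in any library, with Epx at 0 in 17 of the 20. Ccl22 (chr8:97269490-97275599, forward strand), a product of dendritic cells sensed by Ccr4, fell on HFD in knockout mice (log2 fold change of -1.54, SE 0.49, adjusted p = 0.094), from 3.06, 9.98, 4.53, 1.01 and 4.64 TPM to 2.28, 1.03, 0.719, 2.35 and 1.78 TPM. The diets overlapped through mouse 9, and 12 of 19 alternatives lost the call. In the same comparison the dendritic cell markers Clec9a (log2 fold change of -1.30, SE 0.32, adjusted p = 0.036) and Flt3 (log2 fold change of -1.36, SE 0.39, adjusted p = 0.0655) fell, 2 of 5 markers, where 4.85% of all genes were called lower. Xcr1, the receptor that marks the dendritic cells bearing Clec9a, had a log2 fold change of -0.81, SE 0.31, adjusted p = 0.168, and was called by DESeq2 (adjusted p = 0.0712). The part of dendritic cell number in these values was not tested.

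The epithelial and mucosal ligands Ccl20 and Ccl27a fell over both genotypes. Ccl20 (chr1:83113341-83115742, forward strand), which attracts cells through Ccr6, was at 0.226, 0.480, 2.35, 7.69 and 2.44 TPM in knockout mice on LFD and at 0, 0.287, 0.247, 0.0793 and 0.331 TPM in control mice on LFD. The HFD values were 0, 0, 0.421, 0 and 0 TPM in control mice and 0, 0, 0, 0.475 and 0 TPM in knockout mice. The values of mice 8, 9 and 10 stood above all others, and 8 of the 10 HFD libraries were at 0. The fall was called (log2 fold change of -3.24, SE 1.21, adjusted p = 0.0669), and the call was lost without knockout LFD mouse 9 (adjusted p = 0.103), without knockout HFD mouse 17, 19 or 21 (adjusted p = 0.107, 0.108 and 0.113) and with no filter on low values (adjusted p = 0.125). Ccl27a (chr4:41716340-41721120, reverse strand), a keratinocyte ligand of Ccr10, fell from 11.5 ± 4.90 to 7.55 ± 4.37 TPM (SD, n = 5) in control mice and from 13.4 ± 4.63 to 10.9 ± 2.39 TPM in knockout mice (log2 fold change of -0.60, SE 0.23, adjusted p = 0.0712). The change was called only over both genotypes, and 12 of 29 alternatives lost the call. Its receptor Ccr10 was at most 0.148 TPM in any library. Of 7 mammary and skin epithelium markers 1 fell over both genotypes (Elf5), where 12.7% of all genes were called lower. The part of epithelium in these values was not tested.

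In single genotypes few members were called. In control mice Ccl2 alone was called of 43 tested, against 9.32% of all genes, of which 4.42% were higher. In knockout mice 3 of 44 were called, Cxcr7 and Ccr2 higher and Ccl22 lower, against 9.4% of all genes (4.55% higher and 4.85% lower). Beside Ccl3, Cx3cl1 and Ccl27a, the members named by rule for a low p in control mice were Cx3cr1, Cxcl12, Ccr2, Cxcl17 and Cxcl14, with log2 fold changes of -0.47, -0.24, 0.30, -0.52 and 0.27, and in knockout mice, beside Cxcl13, Cx3cl1 and Xcr1, they were Ccl20, Cxcl12, Ccl9 and Cxcl16, with -4.90, -0.30, 0.44 and -0.41, none of them called. In control mice 6 of 8 skeletal muscle markers also fell on HFD, where 751 of all 15311 genes were called lower. The 8 markers summed to 39.1, 6.97, 185, 100 and 2722 TPM in control mice on LFD, so mouse 5 stood far above the others. The part of muscle tissue in these values was not tested. The groups did not overlap for Ccl2 and Ccl3 in control mice, both higher on HFD, where 8.32% of all genes did not overlap in that direction. They did not overlap for Cxcr7 in knockout mice, also higher on HFD, where 5.01% of all genes did not. The comparison over both genotypes uses the same mice as the 2 comparisons within genotypes and is no independent support of them.

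**Figure D3:**
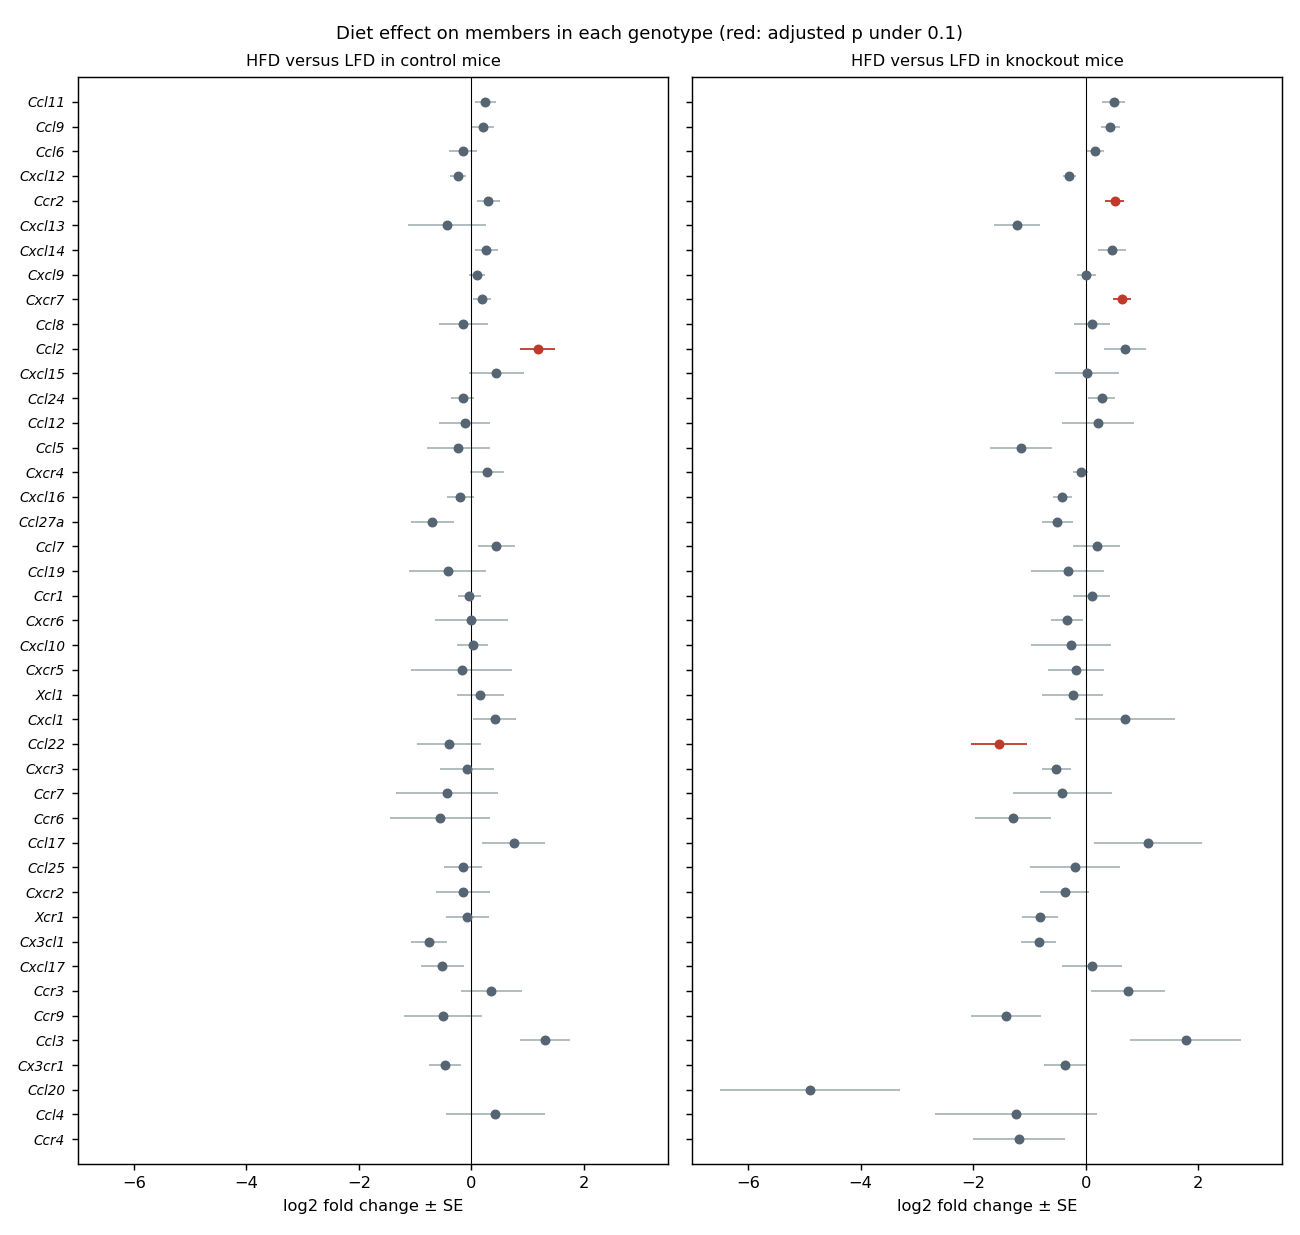
Log2 fold change of HFD over LFD with its SE (edgeR, 5 mice against 5) for the members tested, in control mice on the left and knockout mice on the right, ordered by mean TPM; red marks adjusted p under 0.1. Ccl2 is red in control mice, and Cxcr7, Ccr2 and Ccl22 in knockout mice. Ccl21c, whose reads are shared with other genes, is left out.

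The genes that attract lymphocytes into lymphoid tissue varied widely between mice of a group. Cxcl13 (chr5:96385945-96390086, forward strand) was at 2.27, 35.7, 57.0, 49.4 and 15.98 TPM in control mice and 54.2, 58.4, 43.2, 54.0 and 129 TPM in knockout mice on LFD. Under HFD it reached 9.81, 14.4, 56.6, 43.1 and 20.049 TPM in control mice and 56.6, 36.0, 23.2, 38.8 and 13.9 TPM in knockout mice. Control mouse 1 was lowest and knockout mouse 10 highest, and edgeR on all libraries called it in no comparison (in knockout mice a log2 fold change of -1.22, SE 0.41, adjusted p = 0.111). DESeq2 called it lower on HFD in knockout mice (adjusted p = 0.0211), as did edgeR with the 1 TPM filter (0.0980) or without knockout HFD mouse 17 (0.0867), and over both genotypes edgeR called it without control LFD mouse 1 (0.0526) or mice 1 and 5 (0.0278). Its receptor Cxcr5 ranged from 0.0758 to 7.49 TPM in control mice on LFD and from 1.62 to 8.95 TPM in knockout mice on HFD. The 12 lymphocyte markers, beside these, summed to 11.9, 145, 179.8, 205 and 49.7 TPM in control mice and 235, 181, 111, 134 and 208 TPM in knockout mice on LFD. On HFD they summed to 55.2, 32.4, 212, 194 and 169 TPM in control mice and 222, 132, 81.3, 201 and 82.1 TPM in knockout mice. Control mice 1 and 5 on LFD and 11 and 12 on HFD were low in the lymphocyte sum and low in Cxcl13. Without control LFD mice 1 and 5, chosen after seeing the data, 15 of 45 members were called between diets over both genotypes, 6 higher and 9 lower, against 24.8% of all genes in that fit. Cxcl13, Cxcl16, Ccl5, Ccl22, Ccr6 and Ccr9 were then called lower and Cxcl14 higher, and Ccl9 and Cxcl12 lost their calls. The removal was one-sided, because control HFD mice 11 and 12, also low in lymphocyte markers, were kept. It raises the LFD side for genes low in mice 1 and 5. A call of such a gene as lower on HFD therefore follows in part from the choice and does not show a fall.

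High endothelial venules, the vessels through which lymphocytes enter a lymph node, were followed by Glycam1, Chst4 and Madcam1. Nearly all of their sum was Glycam1, which mammary epithelium also makes in lactation. Glycam1 was at 294, 616, 738, 281 and 565 TPM in knockout mice on LFD and 91.1, 13.2, 29.0, 149 and 51.7 TPM in knockout mice on HFD, which do not overlap. In control mice it was at 0.349, 253, 367, 363 and 51.6 TPM on LFD and 46.6, 20.7, 219.9, 54.5 and 119 TPM on HFD. It fell on HFD in knockout mice (log2 fold change of -2.82, SE 0.59, adjusted p = 0.0182) and over both genotypes (log2 fold change of -2.04, SE 0.69, adjusted p = 0.043). With all libraries edgeR called no single lymphoid homing member between diets, while the sum of the Ccl21 copies, described below, was called in knockout mice. The part of lymph node tissue in the values of these members was not tested.

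Ccl21 and Ccl19 guide T cells and dendritic cells into lymphoid zones through Ccr7, and the levels of Ccl21 depend on how its copies are treated. The annotation holds Ccl21a (chr4:42786392-42787525, reverse strand), Ccl21b (chr4:41774204-41775337, forward strand), Ccl21c (chr4:42391951-42393082, reverse strand) and copies named Gm1987, Gm13304 and Gm10591. Their coding sequences of 402 bases come in 2 forms, that of Ccl21a and Gm1987 and that of the other copies, which differ by T84A and C194T, where positions count from 1 at the first base of the start codon and the Ccl21a base comes first. Coding bases 170 to 217 are shown because they hold one of the only 2 coding differences between the copies, which is in capitals.
Ccl21a and Gm1987: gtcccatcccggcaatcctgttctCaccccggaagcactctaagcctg
Ccl21b, Ccl21c, Gm13304 and Gm10591: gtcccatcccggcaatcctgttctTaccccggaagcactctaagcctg

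Of the 31-base words of their transcripts, Ccl21a shared 99.8%, Ccl21b 99.9% and Ccl21c 100% with another copy. In the deposited values Gm1987, no member by its symbol, held 67.1% to 100% of the summed level (median 90.6%), Gm13304 0 to 30.3%, Ccl21c 0 to 9.57%, and Ccl21a and Ccl21b 0 in every library. Ccl21c was listed at 0 in all 10 knockout mice and above 0 in 3 control mice on LFD (0, 1.84, 1.78, 5.98 and 0 TPM) and 2 on HFD (0, 0.183, 6.33, 0 and 0 TPM). In counts these were 126, 138 and 397 on LFD and 12.5 and 452 on HFD, so on HFD nearly all counts came from control mouse 13. Between genotypes edgeR did not call Ccl21c on either diet. DESeq2 called it over both diets (adjusted p = 1.97e-15).

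The level was therefore also taken as the sum of the 5 copies that were in the table. The sum was 2.13, 27.9, 37.8, 86.0 and 13.7 TPM in control mice and 32.0, 91.0, 49.99, 20.3 and 34.6 TPM in knockout mice on LFD. On HFD it was 14.5, 6.98, 66.1, 7.12 and 21.8 TPM in control mice and 21.3, 9.07, 7.27, 24.2 and 20.9 TPM in knockout mice. The genotypes overlapped on both diets (on LFD a log2 fold change of 0.28, SE 0.69, adjusted p = 0.959, and on HFD a log2 fold change of -0.46, SE 0.57, adjusted p = 0.999). The part of read division between copies in the values of Ccl21c was not tested. The sum fell on HFD in knockout mice (log2 fold change of -1.51, SE 0.38, adjusted p = 0.0415), where the diets overlapped only through LFD mouse 9, and over both genotypes the change was not called (log2 fold change of -1.15, SE 0.49, adjusted p = 0.106). Ccl19, which shares 96.5% of its words with Gm2023 and Gm2442, had in sum with them a log2 fold change of -1.13, SE 0.57, adjusted p = 0.296 in knockout mice. Ccl27a, which shares 51.6% of its words with other genes, kept when summed with its copies its fall over both genotypes (log2 fold change of -0.60, SE 0.19, adjusted p = 0.0265). Summing was chosen after seeing the data.

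**Figure D4:**
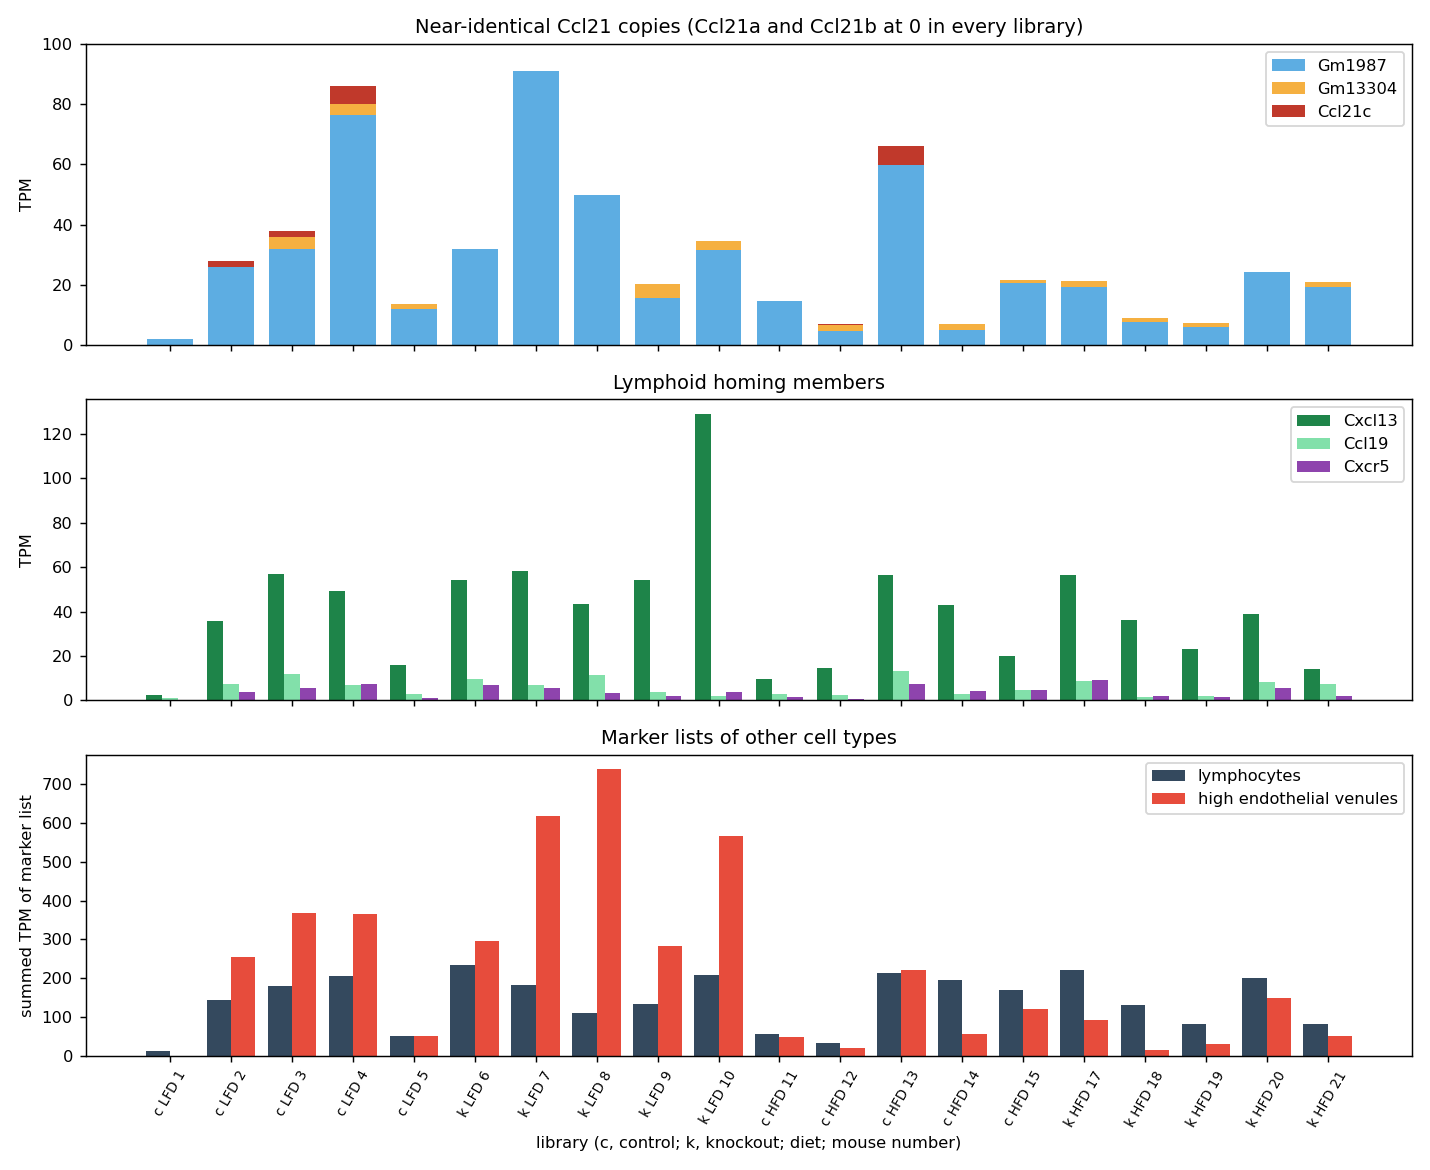
Bars are the 20 libraries, control mice c and knockout mice k. The top panel stacks the TPM of the Ccl21 copies, the middle shows Cxcl13, Ccl19 and Cxcr5 in TPM, and the bottom the summed TPM of the lymphocyte and high endothelial venule markers. Gm1987 holds 67.1% to 100% of the Ccl21 sum, and control LFD mouse 1 is low in all panels.

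The genotype comparison asks whether chemokine genes differ when Tmem120a is removed from adipocytes. No member was called by edgeR on HFD (0 of 43, against 0.00657% of all genes), on LFD (0 of 45, against 0.00636%) or over both diets (0 of 45, against 0.0385%). In the same order DESeq2 called 0, 0 and 1 of the members, the last being Ccl21c. Of all genes, DESeq2 called 100, 17 and 32. The members tested had a median log2 fold change of 0.02 on HFD and 0.10 on LFD, against 0.01 and -0.02 for all genes. In no member did the TPM of the genotypes part without overlap, where 0.69% of all genes did on HFD and 1.4% on LFD. A missed threshold does not show that the genotypes were alike, and the SE of a member bounds what could be seen.

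Ccl6 and Ccl9, neighbours on chromosome 11 that myeloid cells make in abundance, had the lowest p over both diets after Ccl21c. Ccl6 (chr11:83401384-83406589, reverse strand) was at 38.4, 85.3, 113, 75.4 and 71.6 TPM in control mice and 49.4, 51.0, 66.9, 60.6 and 43.6 TPM in knockout mice on LFD. On HFD its level was 78.9, 80.1, 85.6, 96.1 and 67.0 TPM in control mice and 65.0, 54.5, 58.9, 59.4 and 93.3 TPM in knockout mice. On each diet 1 library alone made the genotypes overlap, the low control mouse 1 on LFD and the high knockout mouse 21 on HFD. Knockout against control had a log2 fold change of -0.63, SE 0.25, adjusted p = 0.929 on LFD, a log2 fold change of -0.32, SE 0.14, adjusted p = 0.999 on HFD and a log2 fold change of -0.48, SE 0.15, adjusted p = 0.468 over both diets. Ccl9 was at 42.2, 76.9, 89.3, 74.6 and 62.3 TPM in control mice and 45.4, 50.7, 69.8, 37.9 and 52.7 TPM in knockout mice on LFD, and on HFD at 93.9, 96.0, 91.2, 91.2 and 85.0 TPM in control mice and 81.3, 63.9, 60.4, 63.9 and 119 TPM in knockout mice. On HFD knockout mouse 21 alone lay above the lowest control mouse. It showed a log2 fold change of -0.52, SE 0.22, adjusted p = 0.929 on LFD, a log2 fold change of -0.29, SE 0.14, adjusted p = 0.999 on HFD and a log2 fold change of -0.41, SE 0.13, adjusted p = 0.47 over both diets. Neither gene was called between genotypes in any of the alternatives, where the adjusted p of Ccl6 over both diets ran from 0.230 to 0.787. Their receptor Ccr1 was at 5.13 ± 1.19 TPM (SD, n = 5) in control mice and 4.99 ± 0.719 TPM in knockout mice on LFD. The 14 macrophage markers summed to 613 to 1151 TPM across groups that overlapped, and none was called between genotypes.

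Further members named for a low p between genotypes on LFD were Ccl20 (log2 fold change of 3.69, SE 1.09, adjusted p = 0.929), Cxcr7 (log2 fold change of -0.50, SE 0.18, adjusted p = 0.929), Xcr1 (log2 fold change of 0.70, SE 0.30, adjusted p = 0.929), Ccr4 (log2 fold change of 0.95, SE 0.59, adjusted p = 0.929) and Cxcl13 (log2 fold change of 0.999, SE 0.65, adjusted p = 0.929). Cxcl10 and Ccl11 had differences of 0.52 (SE 0.34) and -0.27 (SE 0.20) on the log2 scale. On HFD they were Cxcl17 (log2 fold change of 0.88, SE 0.52, adjusted p = 0.999), Cxcl15 (log2 fold change of -0.89, SE 0.62, adjusted p = 0.999), Ccl22 (log2 fold change of -0.55, SE 0.43, adjusted p = 0.999), Ccl2 (log2 fold change of -0.49, SE 0.40, adjusted p = 0.999) and Ccl5 (log2 fold change of -0.60, SE 0.55, adjusted p = 0.999). Ccl8 and Ccr3 had differences of 0.19 (SE 0.19) and 0.47 (SE 0.52). None passed the threshold. Over both diets, Cxcr7, Ccl20, Cxcl17, Cxcl15, Cxcl13, Cxcr6 and Xcr1 had log2 fold changes of -0.28, 2.15, 0.56, -0.68, 0.60, 0.50 and 0.32, also without a call.

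The difference between the genotype effects on the 2 diets was tested as an interaction. No member of 45 was called, and none of the 15574 genes (0.0%); 560 genes and 0 members had an unadjusted p under 0.05, and DESeq2 called 14 genes and 0 members. The members with the lowest p were Cxcr7 (log2 difference of 0.43, SE 0.23, adjusted p = 0.9999), Ccl20 (log2 difference of -3.53, SE 2.10, adjusted p = 0.9999), Xcr1 (log2 difference of -0.76, SE 0.49, adjusted p = 0.9999) and Ccl22 (log2 difference of -1.16, SE 0.79, adjusted p = 0.9999). After them, Ccl24, Cxcr4, Ccl5, Ccl6, Ccl4 and Ccl2 had interaction terms of 0.41, -0.38, -0.93, 0.31, -1.68 and -0.50 on the log2 scale. Between genotypes Cxcr7 had on HFD a log2 fold change of -0.06, SE 0.14, adjusted p = 0.999.

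**Figure D5:**
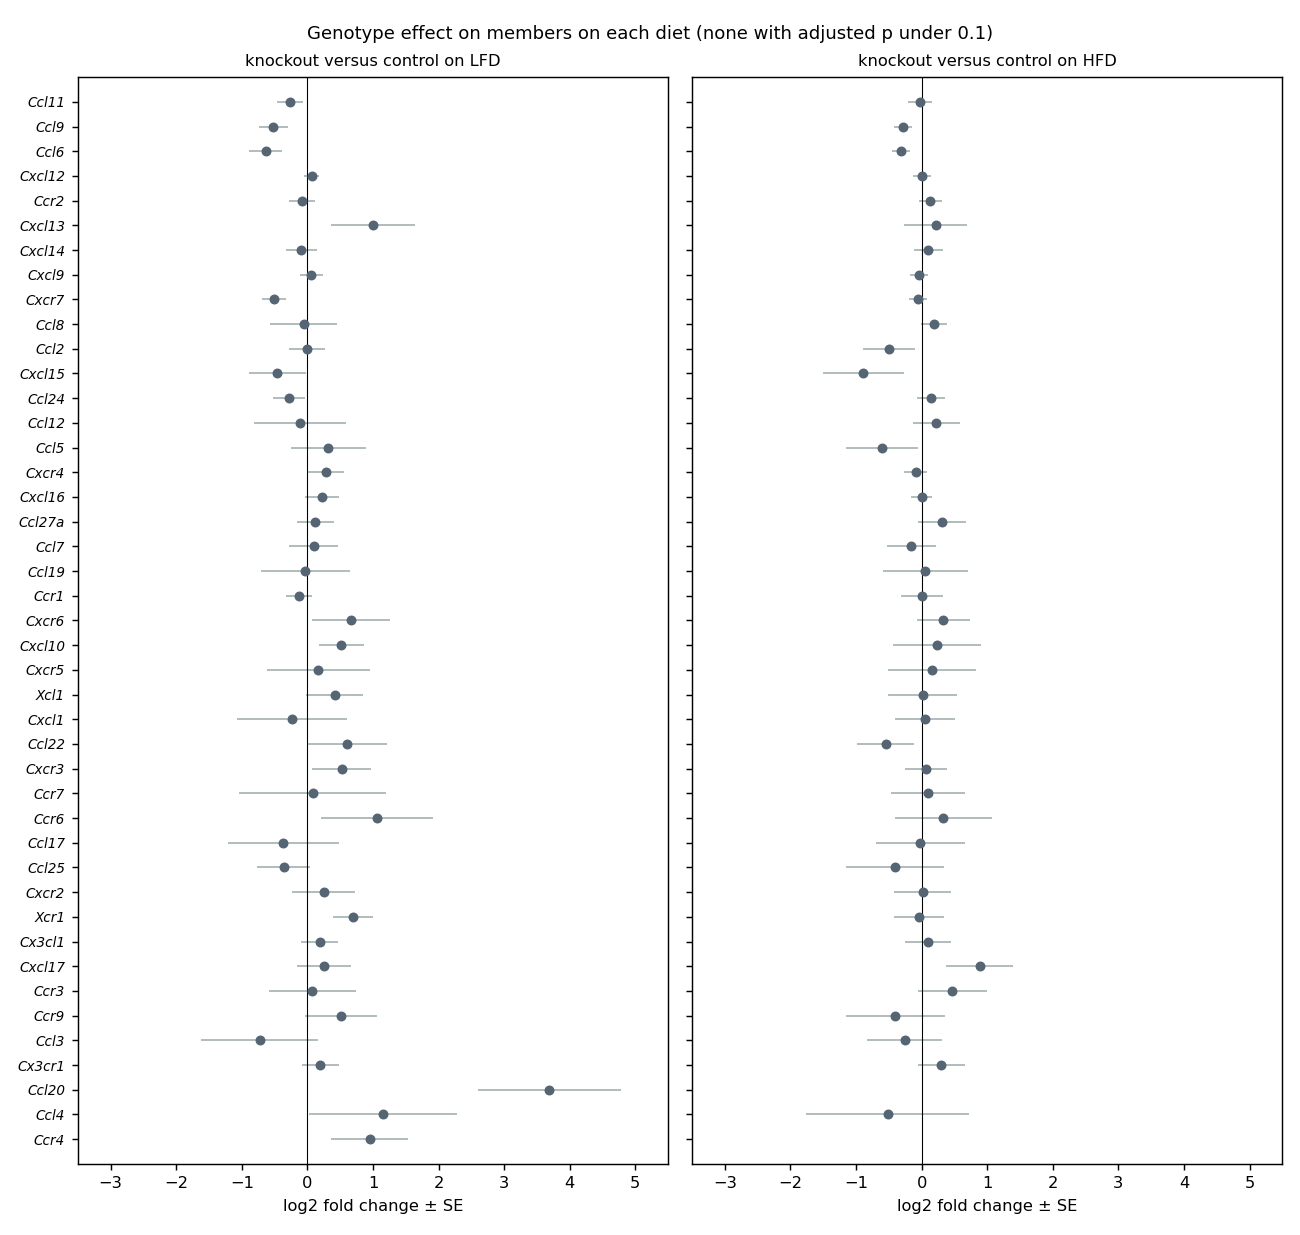
Log2 fold change of knockout over control with its SE (edgeR, 5 mice against 5) on LFD (left) and HFD (right), members ordered by mean TPM. None has an adjusted p under 0.1; Ccl20 on LFD, at 3.69 ± 1.09, lies farthest from 0, and Ccl21c is left out because its reads are shared with other genes.

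The ligands of Cxcr3 draw activated T cells. Cxcl9 was at 23.4 ± 5.20 TPM (SD, n = 5) in control mice and 25.9 ± 4.98 TPM in knockout mice on LFD, and at 28.7 ± 0.942 and 28.1 ± 5.502 TPM on HFD. Cxcl10 was at 3.32 ± 1.13, 5.37 ± 2.43, 3.81 ± 0.892 and 4.51 ± 4.20 TPM in the same order, with knockout HFD mouse 18 at 0.164 TPM and mouse 20 at 11.1 TPM. Cxcr3 was at 2.37 ± 1.29, 3.69 ± 1.12, 2.57 ± 1.18 and 2.72 ± 0.765 TPM. None of them was called in any comparison. Of the neutrophil attractants, only Cxcl15, Cxcl1 and the receptor Cxcr2 reached 0.5 TPM, none was called, and the 7 neutrophil markers summed to at most 37.6 TPM in any library, with Ly6g at 0 in 17 of the 20. Among the abundant members not yet described, group means in the order control LFD, knockout LFD, control HFD and knockout HFD were as follows. Cxcl14, a ligand of epithelium and stroma, was at 23.5 ± 8.46, 23.4 ± 8.61, 31.3 ± 5.97 and 33.1 ± 10.8 TPM (SD, n = 5). Cxcl15 (lungkine) was at 20.002 ± 7.77, 15.3 ± 9.51, 30.7 ± 22.9 and 16.7 ± 12.6 TPM. Ccl24 (an eotaxin) was at 14.7 ± 3.85, 12.9 ± 4.63, 15.3 ± 3.51 and 17.1 ± 4.80 TPM. With all libraries edgeR called none of these 3 in any comparison, while limma on log2(TPM + 1) called Cxcl14 higher on HFD over both genotypes (adjusted p = 0.0666), as did edgeR without control LFD mouse 5 (0.0712), knockout LFD mouse 8 (0.0640) or knockout HFD mouse 17 (0.0871). Ccl8 was at 23.2 ± 16.5, 24.3 ± 10.8, 24.3 ± 4.38 and 28.0 ± 6.32 TPM. Its neighbour Ccl12 was at 12.6 ± 8.36, 12.6 ± 7.54, 13.9 ± 5.86 and 15.7 ± 6.01 TPM. Ccl5 (RANTES), a product of T cells and natural killer cells, was at 12.4 ± 8.39, 17.5 ± 10.4, 12.3 ± 7.17 and 8.03 ± 5.58 TPM. With all libraries edgeR called none of Ccl8, Ccl12 and Ccl5, the last of which was called lower on HFD over both genotypes without control LFD mice 1 and 5 (adjusted p = 0.0962). These mice held the lowest Ccl5 values of their group, so that call follows in part from the choice of libraries. Of the 14 genes of monocyte and macrophage attraction, 4 were called higher and 1 lower over both genotypes between diets, and 9 were not called, where 25.2% of all genes were called.

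Among the markers that stood beside the diet results, the macrophage list did not move as a whole, with 1 of 14 called higher (Cd68) and 1 lower (Mpeg1) over both genotypes. The list of lipid-laden macrophages, the foamy cells of obese fat, rose in 5 of 7 over both genotypes, where 12.5% of all genes were called higher. The 5 included Trem2 (log2 fold change of 1.51, SE 0.51, adjusted p = 0.0405) and Gpnmb (log2 fold change of 1.17, SE 0.24, adjusted p = 0.0014). Within genotypes 5 of the 7 were called higher in control mice (against 4.42% of all genes), including Trem2 (log2 fold change of 1.67, SE 0.25, adjusted p = 0.00554). In knockout mice 1 was (Gpnmb, against 4.55% of all genes), and none of the 7 was called in the interaction. Ccl2, Ccr2 and Ccl3 rose over both genotypes, and the part of such cells in their rise was not tested.

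Of the other genes of the pathway, 10 further chemokines and related receptors were tested, and Rarres2 and Cmklr1 rose on HFD while none fell. Of all genes, 25.2% were called over both genotypes and 12.5% were called higher. Within genotypes 4.42% were called higher in control mice and 4.55% in knockout mice. Rarres2 encodes chemerin, an adipocyte-derived attractant, and Cmklr1 its receptor. Rarres2 was at 178 ± 21.5 TPM (SD, n = 5) in control mice and 145 ± 54.7 TPM in knockout mice on LFD, and at 363 ± 115 and 307 ± 96.3 TPM on HFD. It rose in control (log2 fold change of 0.83, SE 0.16, adjusted p = 0.0137) and knockout mice (log2 fold change of 1.01, SE 0.20, adjusted p = 0.0127). Cmklr1 rose from 47.8 ± 10.6 to 109 ± 29.5 TPM in control mice (log2 fold change of 0.84, SE 0.20, adjusted p = 0.0344) and from 34.8 ± 11.6 to 87.5 ± 20.5 TPM in knockout mice (log2 fold change of 1.05, SE 0.20, adjusted p = 0.0119). Of 20 genes of signalling downstream of the receptors, Gnai2 (log2 fold change of 0.74, SE 0.15, adjusted p = 0.0013) and Gng2, which encode G protein subunits, rose over both genotypes and Elmo1 (log2 fold change of -0.43, SE 0.12, adjusted p = 0.0127), Pik3cg and Prex1, which act on cell movement, fell. These 5 of 20 are a share close to the 25.2% of all genes called in that comparison. Between genotypes none of these 30 genes was called on either diet.

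Promoters of the members were searched for 4 motifs on both strands, in RefSeq sequences of GRCm38.p6 that run from 250 bases before to 50 bases after the annotated start; this build is another than that of the expression values, and no position was carried over. Of the 58 members 41 had at least 1 promoter in the table, 45 promoters in all. The NF-kB consensus, the site of the factor that drives many inflammatory genes, was found in 24.4% of the member promoters, against 8.49% of all 32544 promoters. TATAAA was found in 28.9% against 13.6%, TGANTCA (AP-1) in 15.6% against 7.79%, and the STAT consensus (TTC and GAA with 4 bases between them) in 2.2% against 6.98%. Some of these motifs can overlap each other. Of the 6 members that rose on HFD, the table held Ccl3, Ccl9, Ccr2 and, under its current symbol Ackr3, Cxcr7. Only Ccl9 of these 4 had a match to the NF-kB consensus. Of the members that fell on HFD, Ccl20 and 1 promoter of Ccl27a also had a match, and Cxcl12 and Cx3cl1 had none. The Ccl9 promoter at chr11:83578587-83578886 on the reverse strand is shown with its match, at positions 216 to 225, in capitals.
Ccl9 promoter: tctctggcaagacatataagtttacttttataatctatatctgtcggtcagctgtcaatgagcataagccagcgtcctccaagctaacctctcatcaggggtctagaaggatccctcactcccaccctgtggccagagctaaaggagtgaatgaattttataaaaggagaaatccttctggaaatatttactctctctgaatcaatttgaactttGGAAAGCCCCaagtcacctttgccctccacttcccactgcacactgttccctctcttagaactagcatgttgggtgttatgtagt

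A match describes letters and is not evidence that a factor binds there.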

How the data were processed

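RNA of 20 mice was sequenced as ribosome-depleted stranded paired libraries. The authors quantified reads with Salmon 0.13.1 on mouse mm9 (NCBIM37) cDNA and non-coding RNA and deposited estimated counts and TPM (scaled by length and library size) per transcript; the submitters' processing notes also name STAR 2.5.3. Salmon divides reads shared by near-identical copies, which can move values between them. The deposited transcript values were added up for each gene of the GENCODE mouse annotation of that build, and 97.7% of transcripts matched. Rounded gene sums were tested with edgeR 4.0.16 (R 4.3.3), TMM scaling, genes of at least 0.5 mean TPM; Benjamini-Hochberg adjusted p under 0.1 was a call. Alternatives were DESeq2 1.42.0, its size factors, no filter or 1 TPM, limma 3.58.1 on log2(TPM + 1) and log2(TPM + 0.1), length offsets, 1 fit of all libraries and leaving out each library. Fits were also run on counts simulated for the diet comparison in knockout mice, and their outcome is not given here. The members and lists were chosen with earlier results of these data known. Named were members called, filled up to 10 by lowest p per comparison, and the 15 with the highest mean TPM; other members were named by role. The 3 counts that a 0 allows cover counting error only. Each library is labelled as 1 mouse, so p-values measure the spread between these mice; no batch was given. Mammary, muscle and immune marker lists were followed beside the members. Near-identical copies summed, and control LFD mice 1 and 5 left out, were added after seeing the data. Library totals set the precision: a level near 0.5 TPM rests on few counts. The values of 1 member, counted in the totals, are not reported here and it is not drawn.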

Additional observations from a re-analysis of the deposited data

Results flagged for a closer look

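Of 126 groups of 5 values of the named members, 15 held a highest or lowest library whose gap to the next exceeded 0.71 of the group's range. About 1 in 20 would for independent, normally distributed values. The members share libraries, and Ccl20 on HFD was above 0 in a single library of each genotype. The count can therefore not be set against that rate. Control HFD mouse 13 was the highest of its group for Ccl21c (6.33 TPM), Cxcr6 (10.8 TPM), Cxcl16 (15.5 TPM) and Ccl20 (0.421 TPM), and it was also the highest of its group in lymphocyte markers. Knockout HFD mouse 21 was highest for Ccl6 (93.3 TPM) and Cxcr7 (41.4 TPM), and mouse 20 for Ccl20 (0.475 TPM) and Xcr1 (2.32 TPM), while mouse 17 was lowest for Ccr2 (47.7 TPM). In knockout mice on LFD, mouse 10 was high for Cxcl13 (129 TPM), mouse 8 for Cxcl10 (9.57 TPM), mouse 9 for Ccr3 (2.61 TPM) and mouse 7 for Cxcr6 (9.76 TPM) and Ccl27a (21.3 TPM). Control HFD mouse 15 was low for Ccl24 (9.25 TPM).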

How the results depend on the processing

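No paired analysis was possible because each mouse belongs to a single group and the labels do not give litters. In control mice 1 member was called between diets (2.3%, against 9.32% of all genes). DESeq2 called 2 (4.7%, against 14.4%). So did limma on log2(TPM + 1) (4.7%, against 13.97%) and on log2(TPM + 0.1) (4.7%, against 14.03%). Between 0 and 2 were called when 1 library was left out, where 5.08% to 12.1% of all genes were. Ccl2 lost its call without control LFD mouse 2 (adjusted p = 0.111) or 5 (0.121) or control HFD mouse 12 (0.122). Cx3cl1 gained one without control HFD mouse 11 (0.0575). In knockout mice 3 members were called (6.8%, against 9.40% of all genes). DESeq2 called 8 (18.2%, against 14.3% of all genes), and 1 was called with no filter on low values (1.9%, against 5.03%). When 1 library was left out 1 to 4 were called, where 4.80% to 8.63% of all genes were. The low counts were those without LFD mouse 6, 7, 8 or 10 or HFD mouse 18, 19 or 21. Over both genotypes 10 were called (22.2%, against 25.2% of all genes). With 1 library left out 6 to 13 were called, 6 (13.3%, against 23.1%) without knockout HFD mouse 19 and 13 (28.9%, against 26.9%) without control LFD mouse 1. Between genotypes over both diets DESeq2 called 1 and edgeR 0. DESeq2 called 100 genes on HFD, 17 on LFD, 32 over both diets and 14 in the interaction, where edgeR called 1, 1, 6 and 0, and 2205 and 2247 between diets in control and knockout mice, where edgeR called 1427 and 1476. On TPM, limma called 83.7% of its genes higher on HFD in control mice (edgeR 47.4%), 65.8% (48.4%) in knockout mice and 75.0% (49.7%) over both genotypes, with a median log2 fold change of all genes of 0.13 in control mice against -0.04 in edgeR; no named member reversed its direction there. The interaction of Ccl20 turned from -3.53 to 0.18 without control HFD mouse 13 and was -7.43 without knockout HFD mouse 20. Members under 0.5 TPM, and changes small beside a spread of 47.8%, were limited by depth and by 5 mice per group.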
